A study of Homo sapiens with 4 samples.

Results

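Notch signalling passes between touching cells. A ligand of the Jagged or Delta-like family on one cell binds a Notch receptor on its neighbour, the receptor is cut by an ADAM protease and then by the gamma-secretase complex, and the freed intracellular domain enters the nucleus. There it joins the DNA-binding protein RBPJ and a Mastermind coactivator and switches on genes such as those of the HES and HEY repressors. In breast cancer the pathway is studied in epithelial progenitors, in invasion and in contacts of tumour cells with endothelium.

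The 10 genes described are the receptors NOTCH1, NOTCH2, NOTCH3 and NOTCH4, the ligands JAG1, JAG2, DLL1 and DLL4, and the target genes HES1 and HEY1. They were taken by symbol from the gene-level count tables, and all 10 were found among 61471 gene names. RNA came from MDA-MB-231, an established line of human breast cancer cells that lack the hormone receptors and ERBB2 amplification. It was sequenced as 2 libraries of EGFP negative cells, whose status is given as increased extravasation (passage out of a vessel), and 2 libraries of EGFP positive cells, whose status is given as no such increase. The genotype of both groups is given as WT, and both carry H2B-EGFP, a fusion of histone H2B with green fluorescent protein, and CMV-RFP, a red fluorescent protein under a viral promoter. Both groups were grown in DMEM with fetal bovine serum. EGFP status and extravasation status change together, so neither can be told apart from the other, and the labels do not state the ploidy that the series title names. Nor do they say that replicates are separate cultures, so p-values rest on a spread between libraries that may be technical only.

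Counts over all genes totalled 12635576 and 11620076 in EGFP negative libraries 1 and 2, and 11620005 and 11445076 in EGFP positive libraries 1 and 2; pairs of values below keep this order. A count of 3, taken as the floor, equalled 0.241 to 0.26 CPM (counts on a scale shared by all libraries). Among markers of the line, VIM was at 6022 and 5604 CPM in EGFP negative and 4217 and 4181 CPM in EGFP positive libraries, while the hormone receptor genes ESR1 and PGR and the epithelial cadherin gene CDH1 had 0 to 3 counts in every library. Of 6 markers of the line, VIM rose and CD44 and EGFR fell in EGFP negative cells, the call of EGFR being lost without EGFP positive library 1 (adjusted p = 0.13) or library 2 (0.21). ERBB2, which was listed as low in the line, was at 99.2 and 95 CPM in EGFP negative and 81.5 and 80.6 CPM in EGFP positive libraries (adjusted p = 0.057). The adjusted p was 0.043 with upper quartile scaling, 0.12 with no filter on low counts and 0.13 by DESeq2. With 1 library left out at a time, the log2 fold change ran from 0.225 to 0.3. Over all 16413 genes tested, 18.9% passed edgeR's quasi-likelihood test at an adjusted p of 0.05 (9.4% upward and 9.46% downward), and the median log2 fold change was -0.0028.

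Most Notch genes did not differ between the groups beyond the test's threshold. Of the 10 genes, 7 had enough counts to be tested and 1 of these 7 (14.3%, against the 18.9% of all genes) passed: the ligand gene JAG1, which was 0.807 times as high in EGFP negative cells. By edgeR 0 of the 7 passed in the higher direction, also by DESeq2 and limma-voom, and 3 of the 7 (NOTCH2, JAG1 and HEY1) had an unadjusted p under 0.05. A negative log2 fold change was seen in 5 of the 7 and a positive one in the other 2, NOTCH3 and HEY1, and the median over the 7 was -0.18. The median size of the log2 fold change was 0.31 over the 7, against 0.22 over all genes tested. The libraries of the groups did not overlap for 5 of the 7, against 57.4% of all genes tested. In bulk RNA, fewer cells that make a transcript and less of it per cell cannot be told apart. All fold changes below are EGFP negative over EGFP positive, and adjusted p-values are edgeR's with Benjamini-Hochberg adjustment over all genes tested.

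**Figure D1:**
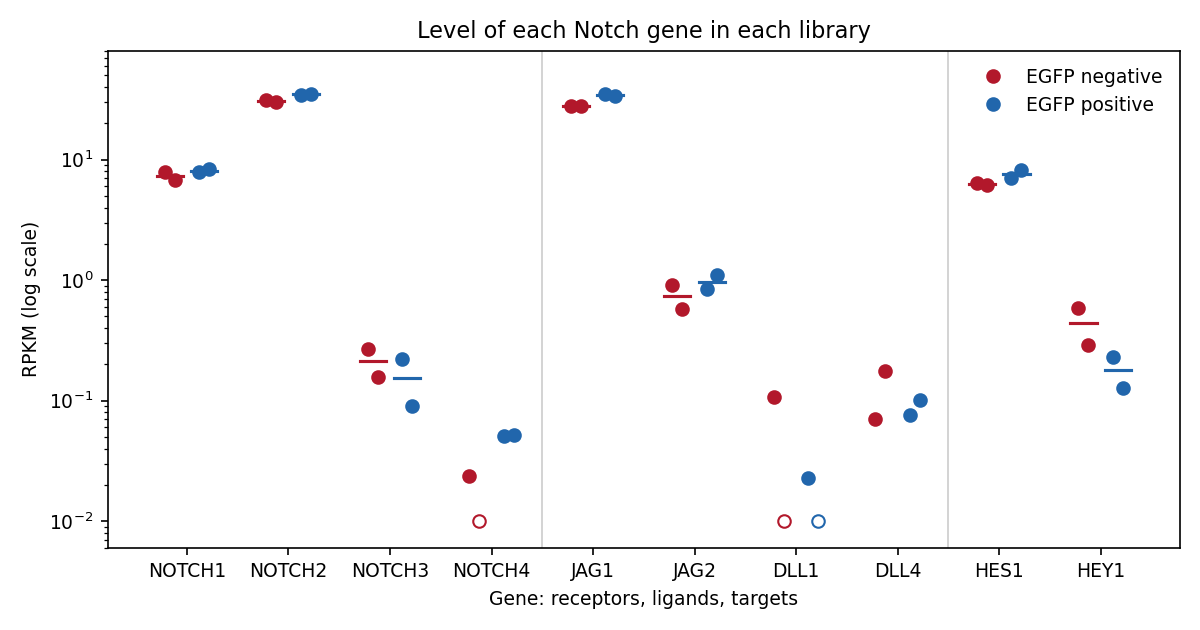
Level of each of the 10 Notch genes in each library, in RPKM on a log scale; each filled point is 1 library, a bar is the mean of the 2 libraries of a group for the genes that were tested, and an open point at the bottom marks a library with 0 counts. NOTCH2 and JAG1 lie near 30 RPKM in both groups, NOTCH1 and HES1 near 7, and the other 6 genes near or below 1.

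Levels of different genes were compared per length, as RPKM (CPM per kilobase of the gene's exons). NOTCH2 was the most abundant gene of the 10, averaged over the 4 libraries, at 32.7 RPKM, above 84.3% of the genes tested. JAG1 followed at 31.2 RPKM, NOTCH1 at 7.71 RPKM, HES1 at 6.95 RPKM and JAG2 at 0.857 RPKM. HEY1, NOTCH3, DLL4, DLL1 and NOTCH4 were at 0.308, 0.184, 0.106, 0.0323 and 0.0317 RPKM, each above at most 3.7% of the genes tested. Neighbours in this order were not always separate: in the EGFP positive libraries the ranges of NOTCH2 and JAG1 overlapped, as did those of NOTCH1 and HES1 and those of HEY1 and NOTCH3. In the EGFP negative libraries JAG2 overlapped HEY1, and NOTCH3 overlapped DLL4 in both groups. The order of DLL4, DLL1 and NOTCH4 rests on 0 to 7 counts per library. RPKM depends on the exon length in the annotation, which joins all transcripts of a gene.

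NOTCH2 and NOTCH1 made up nearly all receptor transcripts in both groups. NOTCH2 (GRCh38 chromosome 1, 119911553 to 120069662, minus strand), a receptor with a long extracellular domain of EGF-like repeats, had 387 and 369 CPM in the EGFP negative libraries, against 426 and 430 CPM in the EGFP positive libraries. Both EGFP negative values lay below both EGFP positive ones. The log2 fold change was -0.18 ± 0.075 (SE, n = 2 libraries per group), with a 95% interval of -0.34 to -0.019 and an adjusted p = 0.12, so the difference did not pass. With any 1 library left out, the log2 fold change stayed between -0.22 and -0.14.

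Human genomes carry partial copies of NOTCH2 on the same chromosome, NOTCH2NLA, NOTCH2NLB, NOTCH2NLC and NOTCH2NLR, which share its first exons, and reads from that stretch could be placed on any of them. The 4 copies together had 431 and 360 counts in the EGFP negative libraries and 376 and 354 counts in the EGFP positive libraries, against 4308 to 4952 counts per library for NOTCH2 itself. Of the 3 copies tested, 0 passed by edgeR, DESeq2 or limma-voom and 0 had an unadjusted p under 0.05. NOTCH2NLA was at 17.3 and 15.4 CPM in EGFP negative and at 16.5 and 16.1 CPM in EGFP positive libraries, with a log2 fold change of 0.0062. NOTCH2NLB had a log2 fold change of 0.13 (adjusted p = 0.72). How many reads the copies and NOTCH2 exchanged was not measured, so the level of each is uncertain.

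NOTCH1 (chromosome 9, 136494433 to 136546048, minus strand), the receptor most often mutated in T-cell leukaemia, had 76.4 and 65.7 CPM in the EGFP negative libraries, against 76.7 and 80.9 CPM in the EGFP positive libraries. The groups did not overlap, but EGFP negative library 1 lay just under EGFP positive library 1, and EGFP negative library 2 was the lowest of the 4. The log2 fold change was -0.15 ± 0.10 (SE, n = 2 per group; 95% interval -0.37 to 0.067; adjusted p = 0.35). Without EGFP negative library 1 it was -0.27, and without EGFP negative library 2 it was -0.036. The ratio of NOTCH2 to NOTCH1 per length was 4 and 4.44 in the EGFP negative libraries and 4.39 and 4.2 in the EGFP positive libraries, so the groups overlapped.

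NOTCH3 and NOTCH4 were close to the limit of detection. NOTCH3 (chromosome 19, 15159038 to 15200995, minus strand), a receptor best known in vascular smooth muscle, had 29 and 16 counts in the EGFP negative libraries, against 22 and 9 counts in the EGFP positive libraries. The groups overlapped, and the log2 fold change of 0.47 ± 0.47 (SE, n = 2 per group; adjusted p = 0.56) had a 95% interval of -0.54 to 1.47, so a change of 2-fold was not detectable at this depth. Without EGFP positive library 2 the log2 fold change was -0.034. NOTCH4 (chromosome 6, 32194843 to 32224067, minus strand), a receptor of endothelium, had 2 and 0 counts in the EGFP negative libraries, against 4 and 4 counts in the EGFP positive libraries. It did not pass the filter on low counts, and the ratio of its summed counts, 0.239, had a 95% counting interval of 0.0247 to 1.2, which includes no difference. Its exons share 98 bases with GPSM3, which had 90 to 123 counts per library.

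As shares of the summed level of the 4 receptors per length, NOTCH2 held 79.4 and 81.3% in the EGFP negative libraries and 80.9 and 80.5% in the EGFP positive libraries. NOTCH1 held 19.9 and 18.3% in EGFP negative and 18.4 and 19.2% in EGFP positive libraries. NOTCH3 held 0.208 to 0.679% in any library and NOTCH4 at most 0.12%. The make-up of the receptors overlapped between the groups for NOTCH1, NOTCH2 and NOTCH3. With 2 libraries per group the smallest exact two-sided permutation p is 0.33, so shares were described and not tested.

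JAG1 was the main ligand and was lower in EGFP negative cells. JAG1 (chromosome 20, 10637684 to 10673999, minus strand) encodes Jagged 1, a membrane ligand whose N-terminal domain binds the receptor's EGF-like repeats. It had 2072 and 1920 counts, or 167 and 165 CPM, in the EGFP negative libraries, against 2406 and 2325 counts, or 208 and 202 CPM, in the EGFP positive libraries. Both EGFP negative libraries lay below both EGFP positive libraries, and the replicates of each group were within a few CPM of each other. JAG1 averaged 165 ± 1.35 CPM in EGFP negative cells and 205 ± 4.48 CPM in EGFP positive cells (SD, n = 2 each).

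The log2 fold change of JAG1 was -0.31 ± 0.080 (SE; 95% interval -0.48 to -0.14; adjusted p = 0.015), which is a ratio of 0.807 with a 95% interval of 0.717 to 0.909. The call was lost without EGFP positive library 1 (adjusted p = 0.28) and without EGFP positive library 2 (adjusted p = 0.19), while the log2 fold change stayed at -0.29 and -0.33. An unnamed antisense gene that covers 306 bases of JAG1's exons (5.15% of their length) had 1 to 5 counts per library. Set against the main receptor, the ratio of JAG1 to NOTCH2 per length was 0.893 and 0.924 in the EGFP negative libraries and 1.01 and 0.973 in the EGFP positive libraries, which did not overlap.

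**Figure D2:**
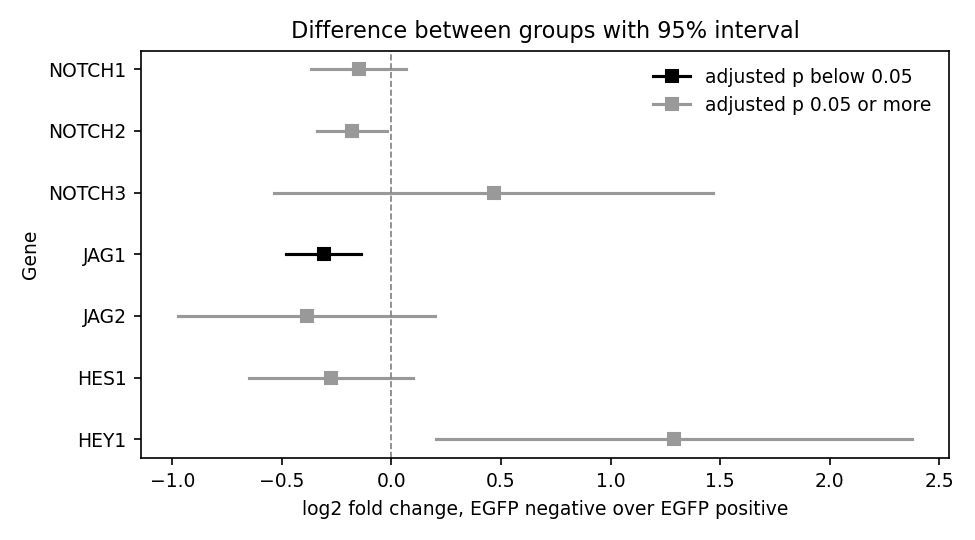
Log2 fold change, EGFP negative over EGFP positive, of the 7 Notch genes that were tested (squares) with its 95% interval (lines); black marks an adjusted p below 0.05. JAG1 at -0.31 is the 1 gene in black, the intervals of NOTCH1 and NOTCH2 end within 0.37 of zero on the lower side, and those of NOTCH3 and HEY1 are the widest.

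JAG2, the second Jagged ligand (chromosome 14, 105140982 to 105168824, minus strand), had 66 and 39 counts in the EGFP negative libraries, against 57 and 74 counts in the EGFP positive libraries. The groups overlapped, with the lowest value in EGFP negative library 2. The log2 fold change was -0.39 ± 0.27 (SE, n = 2 per group; 95% interval -0.97 to 0.20; adjusted p = 0.38). It was -0.77 without EGFP negative library 1 (adjusted p = 0.055), -0.089 without EGFP negative library 2 (0.85) and -0.19 without EGFP positive library 2 (0.88). JAG1 exceeded JAG2 per length 30.8- and 48.3-fold in the EGFP negative libraries and 41.5- and 30.9-fold in the EGFP positive libraries.

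Delta-like ligands were barely detected. DLL1 (chromosome 6, 170282206 to 170291078, minus strand) had 5 and 0 counts in the EGFP negative libraries, against 1 and 0 counts in the EGFP positive libraries. The ratio of the summed counts was 4.79 with a 95% counting interval of 0.535 to 226, and all of the EGFP negative counts came from library 1. FAM120B, on the other strand, covers 9.79% of DLL1's exon length and had 171 to 312 counts per library, and the counting used no strand. DLL4 (chromosome 15, 40929340 to 40939073, plus strand), the Delta-like ligand of sprouting endothelium, had 3 and 7 counts in the EGFP negative libraries, against 3 and 4 counts in the EGFP positive libraries. Its groups overlapped, and its count ratio of 1.37 had a 95% counting interval of 0.47 to 4.23. Neither gene passed the filter on low counts, and a difference was not detectable at this depth; counting intervals cover counting error only.

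Of the summed level of the 4 ligands per length, JAG1 held 96.3 and 97.4% in the EGFP negative libraries and 97.4 and 96.6% in the EGFP positive libraries. JAG2 held 3.12 and 2.01% in EGFP negative and 2.35 and 3.13% in EGFP positive libraries. The Delta-like ligands together made up the remainder, with DLL4 at 0.21 to 0.615% and DLL1 at 0 to 0.365% in any library. The summed ligand level was 29.1 and 28.4 RPKM in the EGFP negative libraries and 36 and 35.2 RPKM in the EGFP positive libraries, a difference that is almost all JAG1.

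HES1 and HEY1 encode bHLH transcription repressors that Notch activates in many tissues, and other signals also act on them. The stretch of the HES1 promoter just upstream of the transcription start is shown with that of HES4, a related repressor gene that is described below, because both hold the core that RBPJ binds. Capitals mark TGGGAA and its longer form GTGGGAA, which contains it. Both are read 5′ to 3′ on the strand of the gene, cover 80 bases from 110 to 31 bases before the start, and come from RefSeq on GRCh38.p14, at chr3:194136038-194136117 (plus strand) for HES1 and chr1:1000128-1000207 (minus strand) for HES4.
HES1: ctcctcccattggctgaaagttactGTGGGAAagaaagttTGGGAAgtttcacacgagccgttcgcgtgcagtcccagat
HES4: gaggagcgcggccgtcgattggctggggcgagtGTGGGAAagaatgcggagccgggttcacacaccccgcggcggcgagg

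In HES1 the longer core begins 85 bases before the start and a second TGGGAA begins 70 bases before it, and in HES4 the longer core begins 77 bases before the start. The motifs were searched on both strands of windows of 250 bases before to 50 bases after the start. TGGGAA was found in 24% and GTGGGAA in 6.25% of all 35116 RefSeq promoter windows of that length. Of the Notch genes, 8 had a window that was searched, and HES1 was the 1 of them that held either form. The N box CACNAG, to which HES proteins bind, was found in 6 of the 8 windows and 4 times in that of HES1, against 38% of all windows, and the E box CACGTG in 0 of the 8, against 7.26%. DLL1 and HEY1 were not searched. A match of letters describes the window and shows no binding.

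HES1 (chromosome 3, 194136148 to 194138732, plus strand) had 126 and 113 counts, or 10.1 and 9.68 CPM, in the EGFP negative libraries, against 127 and 150 counts, or 11 and 13 CPM, in the EGFP positive libraries. The EGFP negative libraries lay below the EGFP positive ones, by less than 1 CPM for the closest pair. The log2 fold change was -0.28 ± 0.17 (SE, n = 2 per group; 95% interval -0.65 to 0.098), and the adjusted p = 0.31 did not pass. Without EGFP positive library 2 the log2 fold change was -0.15 (adjusted p = 0.86). The ratio of HES1 to NOTCH2 per length was 0.205 and 0.205 in the EGFP negative libraries and 0.202 and 0.237 in the EGFP positive libraries, so the groups overlapped.

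HEY1 (chromosome 8, 79762371 to 79767857, minus strand) was at a low level in both groups, and its difference did not pass. It had 30 and 14 counts, or 2.41 and 1.2 CPM, in the EGFP negative libraries, against 11 and 6 counts, or 0.952 and 0.521 CPM, in the EGFP positive libraries. Both EGFP negative libraries lay above both EGFP positive ones, but the libraries within each group differed by more than the closest libraries of different groups. The log2 fold change was 1.29 ± 0.51 (SE, n = 2 per group; 95% interval 0.20 to 2.38; adjusted p = 0.094), the largest of the 7 tested Notch genes. Without EGFP negative library 2 it was 1.7, and without EGFP negative library 1 it was 0.69. HES1 exceeded HEY1 per length 11- and 21.1-fold in the EGFP negative libraries and 30.2- and 65.4-fold in the EGFP positive libraries.

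Other genes of the pathway were taken from 7 lists of 85 genes in all, of which 70 were tested. The counts given per list below stand beside 9.4% higher and 9.46% lower over all genes tested. Of these 70 genes, EGFP negative cells had 11 higher and 7 lower, 25.7% against the 18.9% of all genes tested, and their median log2 fold change was 0.070, against -0.0028 for all genes. The lists were chosen with earlier results of these data known, so the higher share may come from that choice and is no test of the pathway. Of the 18 genes that passed, 6 did so under every alternative that was run: LFNG, MAML3, DNER, BHLHE40, ID1 and PLAU. Calls were lost for 11 of the 18 without EGFP positive library 1, for 9 without EGFP positive library 2, for 1 (HES2) without EGFP negative library 1, for 5 with no filter on low counts, for 6 by DESeq2 and for 1 (GXYLT2) by limma-voom.

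**Figure D3:**
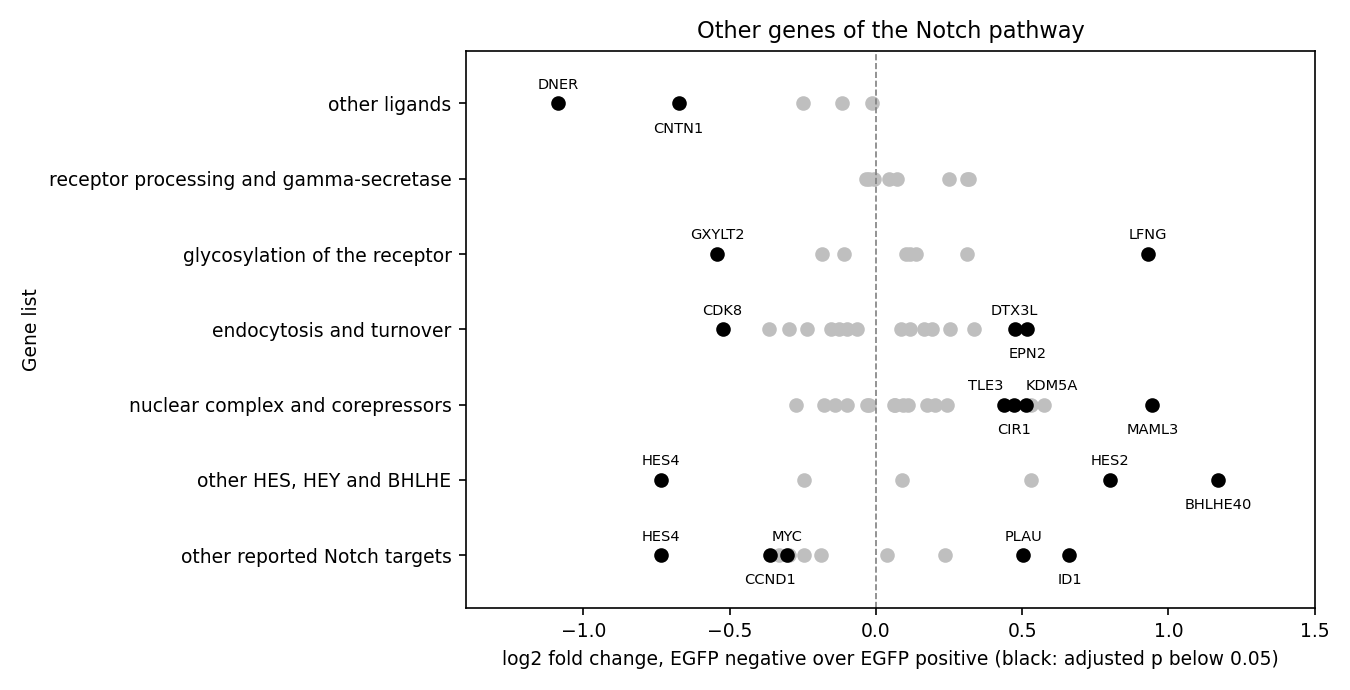
Log2 fold change, EGFP negative over EGFP positive, of the tested genes of each of the 7 pathway lists; each point is 1 gene, and black points with a symbol had an adjusted p below 0.05. LFNG at 0.93, MAML3 at 0.95 and BHLHE40 at 1.17 stand to the right of their lists and DNER at -1.09 to the left, while no gene of receptor processing is black. HES4, NRARP and HEYL each belong to 2 lists and are drawn in both.

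Genes of receptor glycosylation, which shapes the receptor before it meets a ligand, had 1 higher and 1 lower of 8 tested. LFNG encodes Lunatic fringe, which extends the O-fucose sugars on the receptor and so alters its answer to Jagged and Delta-like ligands. It had 48.2 and 38.8 CPM in the EGFP negative libraries, against 22.9 and 22.8 CPM in the EGFP positive libraries, with no overlap and a log2 fold change of 0.93 ± 0.13 (SE, n = 2 per group; adjusted p = 1.8e-04). The gene that fell was GXYLT2, a xylosyltransferase (9 and 9.08 CPM in EGFP negative, 14.4 and 11.9 CPM in EGFP positive libraries; adjusted p = 0.046), a call lost without EGFP positive library 1 (adjusted p = 0.45) or library 2 (0.081), with no filter on low counts (0.085), by DESeq2 (0.17) and by limma-voom (0.051). The list's median log2 fold change was 0.11.

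Of the proteases and gamma-secretase subunits, which cut the receptor, 0 of 8 tested genes passed by edgeR, DESeq2 or limma-voom, with 2 of 8 (NCSTN and ADAM17) at an unadjusted p under 0.05. Both were higher past the threshold with upper quartile scaling (adjusted p = 0.043 and 0.046). Neither passed with no filter on low counts (0.11 and 0.12) or by DESeq2 (0.099 and 0.16). With 1 library left out at a time, the log2 fold change ran from 0.185 to 0.315 for NCSTN and from 0.237 to 0.407 for ADAM17. The subunit genes APH1A and NCSTN had the highest levels, while PSEN2 had 9 and 10 counts in the EGFP negative libraries and 10 and 8 counts in the EGFP positive libraries and was not tested. APH1A was at 176 and 162 CPM in EGFP negative and at 175 and 170 CPM in EGFP positive libraries (adjusted p = 0.84). NCSTN, encoding nicastrin, was at 166 and 169 CPM in EGFP negative and at 135 and 147 CPM in EGFP positive libraries (log2 fold change 0.25, adjusted p = 0.056). ADAM17, a protease that sheds the ectodomains of membrane proteins, was at 44.5 and 46.9 CPM in EGFP negative and at 38.8 and 34.5 CPM in EGFP positive libraries (log2 fold change 0.32, adjusted p = 0.058). Exons of IAH1 on the other strand overlap 17.2% of ADAM17's exon length. IAH1 had 392 and 373 counts in the EGFP negative libraries and 286 and 302 counts in the EGFP positive libraries, so ADAM17 is uncertain. The list's median was 0.060.

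Among further ligands, which include proteins outside the Jagged and Delta-like families, both genes that passed were lower, of 5 tested (median -0.25). Over all genes tested 9.46% were lower, and a list this short shows no direction of the ligands. DNER, a transmembrane protein with EGF-like repeats known from neurons, had 6.83 and 6 CPM in the EGFP negative libraries, against 14.4 and 12.8 CPM in the EGFP positive libraries (log2 fold change -1.09 ± 0.18, SE, n = 2 per group; adjusted p = 8.6e-04). The neural adhesion gene CNTN1 had 5.38 and 5.91 CPM in the EGFP negative libraries, against 9.95 and 8.07 CPM in the EGFP positive libraries (adjusted p = 0.038). The call of CNTN1 was lost without EGFP positive library 1 (adjusted p = 0.38) or library 2 (0.067), with no filter on low counts (0.062) and by DESeq2 (0.15).

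In the nuclear list, 4 of 19 tested genes passed, with 4 higher and 0 lower in EGFP negative cells (median 0.11), against 9.4% higher and 9.46% lower over all genes tested. Without EGFP negative library 1 the list had 5 higher and 2 lower, and without EGFP negative library 2 it had 6 higher and 1 lower. Without EGFP positive library 1 it had 2 higher and 0 lower, and without EGFP positive library 2 it had 1 higher and 0 lower. MAML3, a Mastermind coactivator of the Notch and RBPJ complex, had 19.7 and 20 CPM in the EGFP negative libraries, against 11.1 and 9.55 CPM in the EGFP positive libraries (log2 fold change 0.95 ± 0.15, SE, n = 2 per group; adjusted p = 6.8e-04). The other 3 act in repression: the histone demethylase gene KDM5A (log2 fold change 0.51), the Groucho-type corepressor gene TLE3 (0.44) and the RBPJ corepressor gene CIR1 (0.47), with adjusted p-values of 0.0026, 0.0056 and 0.035. The calls of TLE3 and CIR1 were lost without EGFP positive library 1 (adjusted p = 0.088 and 0.15) or library 2 (0.063 and 0.31), that of KDM5A without EGFP positive library 2 (0.08), and that of CIR1 also with no filter (0.072) and by DESeq2 (0.12).

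Genes of endocytosis and turnover had 2 higher and 1 lower of 16 tested (median 0.011). EPN2, an epsin of ligand endocytosis, had a log2 fold change of 0.52 (adjusted p = 0.0034; 0.062 without EGFP positive library 1). Its exons overlap those of B9D1 on the other strand over 35.3% of their length, and B9D1 had 114 and 106 counts in the EGFP negative libraries and 57 and 60 counts in the EGFP positive libraries, so EPN2 is uncertain. The ubiquitin ligase gene DTX3L was at 0.47 (adjusted p = 0.029; 0.33 without EGFP positive library 1, 0.062 with no filter and 0.072 by DESeq2). The kinase gene CDK8, whose product phosphorylates the Notch intracellular domain, fell by 0.52 on the log2 scale (adjusted p = 0.012; 0.13 and 0.085 without EGFP positive library 1 and library 2).

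Further repressors of the HES, HEY and BHLHE families had 2 higher and 1 lower of 6 tested (median 0.31), and the lower one was HES4. HES4 had 87 and 62 counts, or 6.99 and 5.31 CPM, in the EGFP negative libraries, against 128 and 109 counts, or 11.1 and 9.46 CPM, in the EGFP positive libraries. Its groups did not overlap, and the log2 fold change was -0.73 ± 0.21 (SE, n = 2 per group; adjusted p = 0.024), a call lost without EGFP positive library 1 (adjusted p = 0.22) and by DESeq2 (0.091). HES2 had 7.71 and 6 CPM in the EGFP negative libraries, against 4.24 and 3.65 CPM in the EGFP positive libraries (adjusted p = 0.035). It lost its call without EGFP positive library 1 (0.096) or library 2 (0.25), without EGFP negative library 1 (0.12), with no filter (0.054) and by DESeq2 (0.14). BHLHE40, a repressor known from the circadian clock and the response to low oxygen, had 61.1 and 61.6 CPM in the EGFP negative libraries, against 27.9 and 26.6 CPM in the EGFP positive libraries (log2 fold change 1.17 ± 0.11, SE, n = 2 per group; adjusted p = 3.4e-06). HES3, HES5 and HES7 had at most 7 counts in any library.

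Genes reported elsewhere as Notch targets, all of which have other regulators, had 2 higher and 3 lower of 11 tested (median -0.24). The cyclin gene CCND1 had 806 and 743 CPM in the EGFP negative libraries, against 996 and 993 CPM in the EGFP positive libraries (log2 fold change -0.36, adjusted p = 0.0032; 0.11 without either EGFP positive library). MYC had 144 and 139 CPM in EGFP negative and 177 and 172 CPM in EGFP positive libraries (log2 fold change -0.30, adjusted p = 0.019; 0.3 and 0.21 without EGFP positive library 1 and library 2). HES4 was the third lower gene. ID1, a dominant negative partner of bHLH factors, and PLAU, encoding urokinase, were higher, with log2 fold changes of 0.66 and 0.50 (adjusted p = 4.2e-04 and 2.5e-04). Exons of CCND1 overlap those of LTO1 over 11.5% of their length, and exons of PLAU overlap those of C10orf55 over 28.7%.

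Because NOTCH4 and DLL4 are genes of endothelium and NOTCH3 one of mural cells, markers of those cells were read in the same libraries. In the endothelial list, CDH5 and ERG were at 0 counts in all 4 libraries, which allows up to 0.26 CPM in a library. In this list 6 of 9 genes had at most 3 counts in every library. The summed level of the 9 was 139 to 166 RPKM in EGFP negative and 133 to 138 RPKM in EGFP positive libraries, almost all of it ESAM. PECAM1 was the 1 of 3 tested endothelial genes that passed, and it was higher, against 18.9% called and 9.4% higher over all genes tested. Its level was low, at 39 and 43 counts in EGFP negative and 9 and 9 counts in EGFP positive libraries. In CPM these were 3.13 and 3.69 in EGFP negative and 0.779 and 0.781 in EGFP positive libraries (adjusted p = 0.0015). KDR was at 10.5 and 8.06 CPM in EGFP negative and 13.2 and 13.3 CPM in EGFP positive libraries, with a log2 fold change of -0.51 (adjusted p = 0.067). ESAM had a log2 fold change of 0.17 (adjusted p = 0.23). With 1 library left out at a time, the log2 fold change ran from -0.72 to -0.32 for KDR and from 0.031 to 0.31 for ESAM. Of the mural and fibroblast list, 2 of 5 tested genes rose, CSPG4 (log2 fold change 1.37) and PDGFRB (1.04), against 9.4% of all genes tested. The list's summed level was 8.25 to 10.6 RPKM in EGFP negative and 6.5 to 7.42 RPKM in EGFP positive libraries, with DCN at 0. The other 3 did not pass: ACTA2 had a log2 fold change of 0.53 (adjusted p = 0.37), RGS5 one of -0.28 (0.65) and COL1A1 one of -0.30 (0.30), which was -0.69 without EGFP negative library 1 (2.4e-04) and 0.010 without EGFP negative library 2. PDGFRB lost its call without EGFP positive library 2 (adjusted p = 0.34), without EGFP negative library 1 (0.063) and by DESeq2 (0.11). The 7 leukocyte markers read summed to 27 and 31 counts in EGFP negative and 16 and 11 counts in EGFP positive libraries, with CD3E, TYROBP and AIF1 at 0. LYZ had 10 and 15 counts in EGFP negative and 2 and 3 counts in EGFP positive libraries. CD14 had 10 and 9 counts in EGFP negative and 6 and 2 counts in EGFP positive libraries. The groups did not overlap for LYZ and CD14 but did for PTPRC and CD68, and 0 of the 7 had enough counts to be tested. The part of these genes in the levels of NOTCH3, NOTCH4 and DLL4 was not tested.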

How the data were processed

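The authors deposited 1 table of raw fragment counts per library, made, per the file headers, with featureCounts 2.0.1 on paired reads, summing exons of the GENCODE 46 basic annotation by gene name, without a strand option. Reads of genes that overlap on opposite strands could thus not be told apart, although the library kit was directional, per the labels' protocols. The submitters' processing notes name Subread and the builds GRCh37 and hg19; the aligner is not given in the sources used here. Coordinates in the tables match GRCh38, where 9 of the 10 Notch genes lie within 5000 bases of their place in GENCODE 29. DLL1 differs in its upper end.

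Groups were compared over the 4 libraries by the quasi-likelihood test of edgeR 4.0.16 (R 4.3.3), with no term besides group, after filterByExpr (minimum count 10, minimum total 15) and TMM scaling (factors 0.988 to 1.01). It covered 16413 genes, with Benjamini-Hochberg adjustment and a threshold of 0.05. The biological coefficient of variation was 7.52%. Standard errors are the log2 fold change over the square root of F, and intervals are at 95%. The deposited counts were turned into CPM with TMM-scaled totals and into RPKM with the deposited exon lengths. Counting intervals of a ratio are exact (Clopper-Pearson) and cover counting error only. Replicate libraries differed by more than sampling noise, with a chi-square per degree of freedom of 6.65 in EGFP negative and 2.12 in EGFP positive libraries. The fit was tested on simulated data.

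The Notch genes and the other gene lists were chosen with earlier results of these data known. Every Notch gene is named; from each other list, every gene that passed or, where none did, the 2 with the highest level. Outside this rule, ADAM17, PSEN2, KDR, ACTA2, RGS5, COL1A1, ESAM, NRARP, HEYL, B9D1, IAH1, FAM120B, GPSM3, LTO1, C10orf55 and genes at or near 0 counts are mentioned, chosen after their values were seen. Of the leukocyte list, 1 gene is not reported here. Alternatives were scaling by RLE or by the upper quartile, testing without a filter, a stricter filter (1 CPM in 2 libraries and a total of 100), DESeq2 1.42.0, limma-voom 3.58.1, the replicate number as a block, and each library left out in turn. Figures were drawn with matplotlib 3.10.9.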

Additional observations from a re-analysis of the deposited data

How the results depend on the processing

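Of the 7 Notch genes tested, JAG1 kept its call under every alternative except leaving out either EGFP positive library. Over all alternatives, the Notch genes kept direction and side of the threshold in 67 of 75 values, lost a call in 2, gained one in 5 and changed sign in 1. The range over the fits that left out 1 library was 720 to 2477 genes higher and 715 to 2465 lower among all genes, 0 to 1 Notch genes higher and 0 to 3 lower. Over the same fits the log2 fold change of NOTCH3 ran from -0.034 to 1.24, that of APH1A from -0.098 to 0.034, that of NOTCH2NLA from -0.082 to 0.093, that of NOTCH2NLB from -0.15 to 0.36 and that of COL1A1 from -0.69 to 0.010; the cause was not tested. Calls over all genes fell when an EGFP positive library was left out and rose when an EGFP negative library was left out. A call lost or gained in those fits is thus not particular to the gene. DESeq2 called 997 genes lower, against 1552 by edgeR. NOTCH3 and HEY1 did not pass the stricter filter and have no value there.

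The numbers in the titles are not said to pair libraries, and the deviations of the number 1 libraries from their group means correlated at 0.114 across genes, with only 2 pairs. With the replicate block 2407 genes were lower, and of the Notch genes 1 was higher (HEY1, adjusted p = 0.04) and 2 were lower (JAG1 at 2.2e-04 and NOTCH2 at 0.028). With the block NCSTN (0.0051), ADAM17 (0.0096) and ERBB2 (0.0097) were also higher and KDR (0.013) lower, and the nuclear list had 6 higher and 1 lower.

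In plain counts with no length, the mean share among receptors was 15.7% in EGFP negative and 15.5% in EGFP positive cells for NOTCH1, 83.8% and 84.2% for NOTCH2, and 0.0682% in EGFP positive cells for NOTCH4. DLL4 then held 0.144% of the ligands in EGFP positive cells. These shifts follow from the gene lengths. Depth limits NOTCH3, NOTCH4, DLL1, DLL4 and HEY1, which had at most 30 counts in any library.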
